A study of Caenorhabditis elegans with 4 samples.

Results

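The regions described here are the LET-418 peaks on the centre and the right arm of Caenorhabditis elegans chromosome III. They were taken from the series-wide peak list as those on III whose midpoint lies above position 3722000 in WS220, which gave 1632 of the 13690 peaks in that list. Position 10340000 divides them into 936 peaks in the centre, where the genetic map is short for the physical length, and 696 on the right arm, where recombination is frequent. Members were defined by position alone, and their number, spacing, width, score and replicate calls did not enter the rule. Members, lists and rules were, however, chosen with earlier results of these data known. The study mapped LET-418 by chromatin immunoprecipitation and sequencing (ChIP-seq) in 2 replicates, with 2 input DNA samples. All 4 samples were whole wild-type N2 larvae of stage L3 kept at 20 °C, in a population of both males and hermaphrodites. The antibody was an affinity-purified rabbit polyclonal. A whole-animal sample mixes all tissues, so a site bound weakly in many cells and one bound strongly in a few cannot be told apart.

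LET-418 is a worm counterpart of Mi-2/CHD4, an ATPase that slides and evicts nucleosomes. It works in the NuRD complex, which also carries histone deacetylases, and in the MEC complex with MEP-1. In worms it is known for keeping germline genes silent in somatic cells and for its role in vulval development. Worm autosomes have gene-rich centres with conserved, broadly expressed genes, and arms with more repeats and more heterochromatin marks.

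The 2 replicates gave lists of very unequal length, 1887 peaks in replicate 1 and 19594 in replicate 2, and 138 and 2357 of these lay in the centre and right arm of III. The score of a peak is the authors' own, with no named scale, and is compared here only within 1 list. The lists hold no read counts, so sequencing depth is unknown. The series-wide list may rest on the same reads as the replicate lists. Of its peaks, 93.3% overlapped a replicate 2 peak by at least 1 bp and 12.1% a replicate 1 peak. A result shared by the series-wide list and replicate 2 is therefore not seen in 2 independent lists. All intervals are 95% intervals for counting error over peaks. Peaks lie in groups and are not replicates, so these intervals are too narrow. Each list is 1 value, and no p-value is given for any difference.

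LET-418 peaks were denser on the right arm than in the centre. There were 141 series-wide peaks per Mb in the 6.618 Mb of the centre (exact Poisson interval 133 to 151). There were 202 per Mb in the 3.44 Mb of the right arm (187 to 218), a ratio of 1.43 (exact interval 1.29 to 1.58). Replicate 2 gave nearly the same ratio, with 204 per Mb in the centre and 292 on the right arm (1.43, 1.31 to 1.55). Replicate 1 had 86 peaks in the centre and 52 on the right arm, which is 12.99 and 15.1 per Mb. Its ratio of 1.16 had an interval of 0.807 to 1.66, so the difference was not detectable in that short list, and the interval also holds the ratio of the other lists. In replicate 2 and in the series-wide list, which are not independent, the difference was larger than counting error.

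In the series-wide list and in replicate 2, both regions also had more peaks per Mb than the other 5 chromosomes, which had 127 series-wide peaks per Mb. The ratio to them was 1.12 for the centre (1.04 to 1.20) and 1.60 for the right arm (1.48 to 1.73). Replicate 2 gave 1.11 (1.05 to 1.18) and 1.59 (1.49 to 1.69). Series-wide counts in 500-kb bins of the centre had a variance of 4.05 times their mean, where independent placement gives 1. The centre's small excess is therefore not settled by these counting intervals. Replicate 1 showed no such excess, with 0.822 (0.653 to 1.02) for the centre and 0.955 (0.71 to 1.26) for the right arm. The left arm of III had 300.1 series-wide peaks per Mb, 1.48 times the density of the right arm (1.35 to 1.63). The gap between the arms was wider in replicate 1, where the left arm was 6.80 times as dense (5.08 to 9.27), than in replicate 2, where it was 1.25 times (1.15 to 1.35). These lists hold 1887 and 19594 peaks, so the 2 ratios are not on a like basis. In the series-wide list and in replicate 2, density was highest on the left arm, lower on the right arm and lowest in the centre. In replicate 1 a crowded left arm stood beside a sparse centre and right arm, whose values were not distinguishable.

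**Figure D1:**
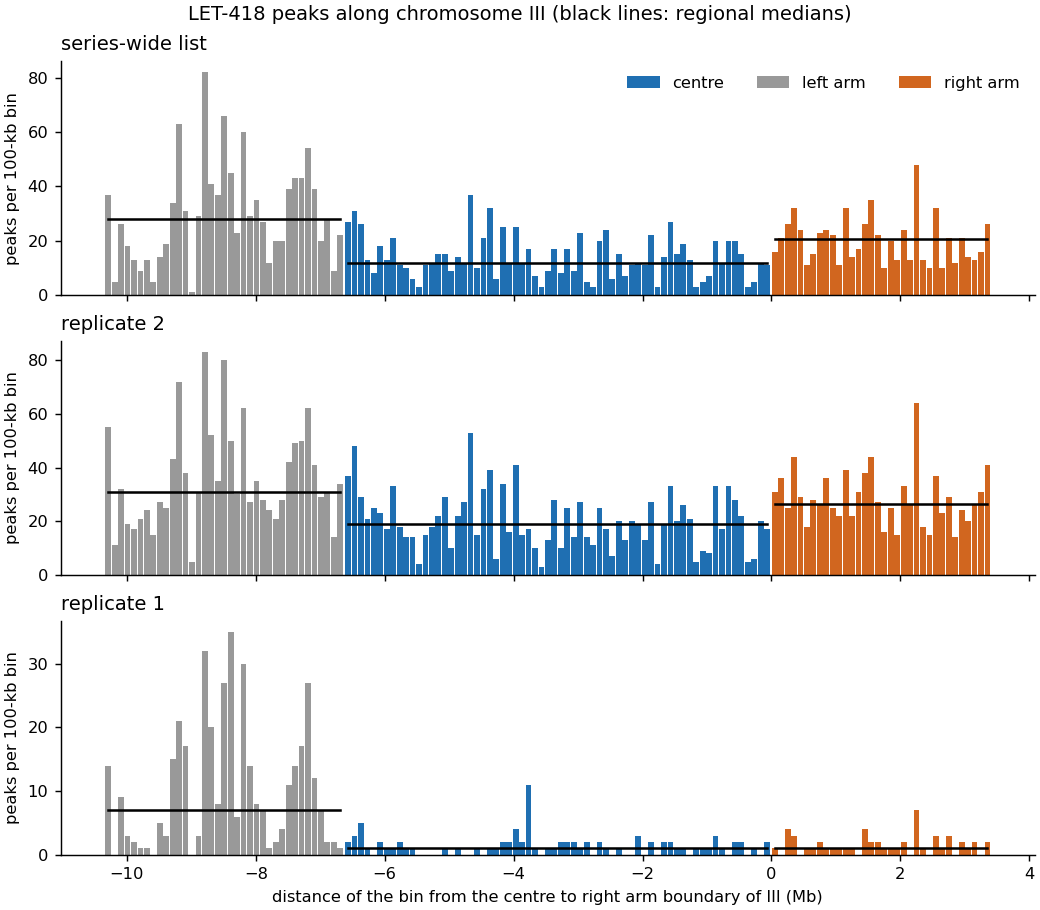
Number of LET-418 peaks in each whole 100-kb bin of chromosome III, against the distance of the bin from the boundary of centre and right arm in Mb, for each of the 3 lists (vertical scales differ). Grey, blue and orange bars are the left arm, centre and right arm, and black lines the median bin of each region, which in the series-wide list is 12 in the centre and 20.5 on the right arm.

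In bins of 500 kb the counts ranged less widely on the right arm than in the centre. In bins of 100 kb both regions were uneven, with 10 to 48 series-wide peaks per bin on the right arm (variance to mean ratio 3.71) and 3 to 37 in the centre (4.38). The 6 whole bins of 500 kb on the right arm held 95 to 119 series-wide peaks, with a median of 100. They end at III 13340000 and leave out the rest of the arm, to 13783700. Without the last 500 kb of the arm the density ratio to the centre was 1.47 instead of 1.43, so this end was sparser than the rest of the arm. The 13 bins of the centre held 47 to 105, with a median of 64. In replicate 2 the right arm bins held 127 to 165 (median 142.5) and the centre bins 73 to 160 (median 99). In replicate 1 they held 6 to 10 (median 7.5) and 1 to 20 (median 6). All 6 right arm bins were above the centre's median bin in the series-wide list and in replicate 2, and 5 of 6 were in replicate 1. Only 1 of the 13 centre bins reached the lowest whole right arm bin of the series-wide list, 2 did so in replicate 2 and 7 in replicate 1.

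In the series-wide list that bin was the first of the centre, III 3722001 to 4222000, with 105 series-wide, 11 replicate 1 and 160 replicate 2 peaks. No drop in density was detectable at the left boundary. The 500 kb before position 3722000 held 114 series-wide peaks and the 500 kb after it 105, a ratio of 0.921 (0.70 to 1.21). Replicate 2 had 147 and 160 there (1.09, 0.865 to 1.37), and replicate 1 had 20 and 11 (0.55, 0.238 to 1.20). Between the 500 kb before position 10340000 and the 500 kb after it, density rose in the series-wide list and in replicate 2. The last 500 kb of the centre held 51 series-wide peaks and the first 500 kb of the right arm 119, a ratio of 2.33 (1.67 to 3.31). Replicate 2 had 81 and 165 there (2.04, 1.55 to 2.69), and replicate 1 had 3 and 8 (2.67, 0.64 to 15.6). No rise was seen at the position itself. The last 100 kb of the centre held 22 series-wide peaks and the first 100 kb of the right arm 16 (0.727, 0.357 to 1.45). Replicate 2 had 34 and 31 in these windows (0.912, 0.542 to 1.53).

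The last peak outside the left boundary, III 3719663 to 3719868, scored 13.24 in the series-wide list, and the first inside, III 3728792 to 3729025, scored 4.71. The last peak of the centre, III 10339317 to 10339728, scored 7.57, and the first of the right arm, III 10357803 to 10357975, scored 15.05. All 4 were called in replicate 2 and none in replicate 1.

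On the right arm the densest 100-kb bin was III 12540001 to 12640000, with 48 series-wide, 7 replicate 1 and 64 replicate 2 peaks. It was followed by III 11840001 to 11940000 with 35 series-wide peaks and III 10640001 to 10740000 with 32. In the centre the densest was III 5622001 to 5722000, with 37 series-wide and 53 replicate 2 peaks but 0 in replicate 1. Next came III 5922001 to 6022000 with 32 and III 3822001 to 3922000 with 31. No right arm bin fell under 10 series-wide peaks, while 6 centre bins had 3. These began at III 4822001, 6722001, 7522001, 8522001, 9122001 and 9922001.

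Long stretches between neighbouring peaks were less frequent on the right arm than in the centre, whereas no difference in short distances was detectable in the series-wide list. Mean spacing follows from density, so the spacing contrast is not independent of the density difference. The median distance between the midpoints of neighbouring series-wide peaks was 1981 bp in the centre (exact order-statistic interval 1763 to 2332) and 1566 bp on the right arm (1344 to 1806). The lower quartiles lay close together, at 805 and 792 bp. The upper quartiles were further apart, at 7730 and 5169 bp. Distances under 1 kb made up 32.7% of those in the centre (Wilson interval 29.8 to 35.8) and 35.1% on the right arm (31.7 to 38.7), with overlapping intervals. Distances over 10 kb made up 21.2% (18.7 to 23.9) and 14.96% (12.5 to 17.8), without overlap. Such long distances took up 74.1% of the length of the centre and 60.99% of that of the right arm.

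Replicate 2 showed the same contrast in long distances and, in addition, one in short distances. Its long distances were 13.8% in the centre (12.1 to 15.8) and 9.07% on the right arm (7.45 to 11.01). Its distances under 1 kb were 34.1% (31.6 to 36.7) and 39.8% (36.8 to 42.8). Median distances were 1608 bp (1438 to 1733) and 1304 bp (1215 to 1431). In replicate 1 they were 54569 bp in the centre and 50221 bp on the right arm, with intervals that overlapped almost fully (23579 to 76009 and 19491 to 74104). Over all pairs of 1 distance from each region, the right arm had the longer distance in 46.1% (43.3 to 48.9) of the series-wide pairs, where 50% means no difference. The value was 45.6% (43.3 to 47.9) in replicate 2 and 47.7% (37.6 to 57.7) in replicate 1.

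**Figure D2:**
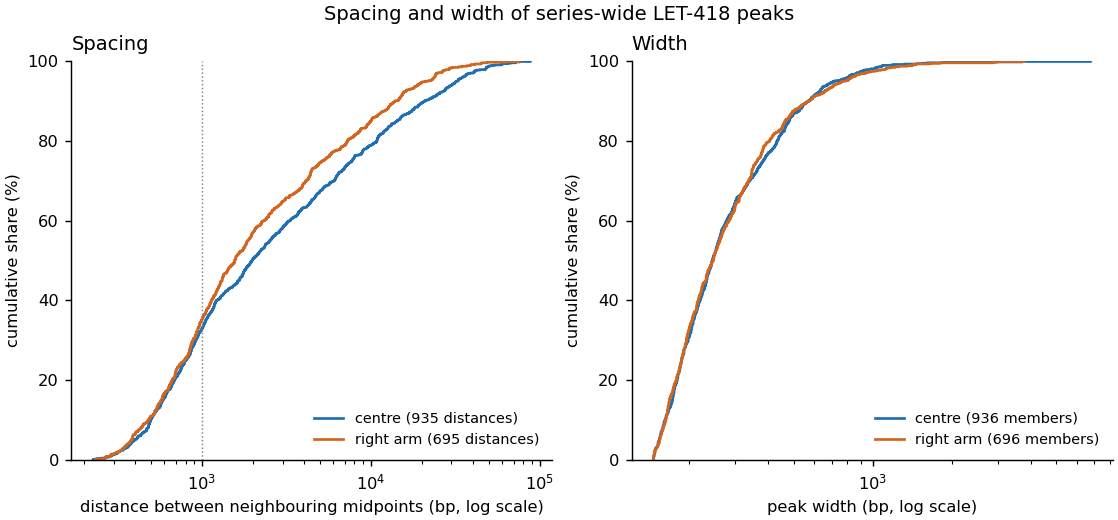
Cumulative shares of the distances between midpoints of neighbouring series-wide peaks (left, bp on a log axis, dotted line at 1 kb) and of peak widths (right, bp on a log axis) in the centre (blue) and on the right arm (orange). The distance curves run together up to 1 kb and part above it, and the width curves lie on each other, with medians of 245 and 246.5 bp.

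Runs of at least 3 peaks whose neighbours lay under 1 kb apart took similar shares of both regions in the series-wide list. Such runs held 277 of the 936 centre peaks, 29.6% (26.8 to 32.6), and 211 of the 696 right arm peaks, 30.3% (27.02 to 33.8). On the left arm of III they held 43.6% (40.7 to 46.5). In replicate 2 the shares were further apart, at 29.8% (27.4 to 32.3) in the centre and 37.6% (34.7 to 40.7) on the right arm. The longest run in the centre, III 8982112 to 8986995, had 9 peaks with scores from 3.84 to 20.85. All 9 were called in replicate 2 and 1 in replicate 1. The longest on the right arm, III 11474257 to 11479265, had 8 peaks with scores from 2.48 to 16.85, of which 8 and 1 were called.

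The longest stretch without a member was III 6710253 to 6798205, in the centre. Its 87953 bp held no peak of either replicate. Stretches of 75810 bp (III 7387650 to 7463459) and 71271 bp (III 7498926 to 7570196) followed, with 1 and 5 replicate 2 peaks inside. The longest on the right arm were III 12061605 to 12137537 with 75933 bp, III 11380780 to 11442987 with 62208 bp and III 11506403 to 11554600 with 48198 bp. These 3 held 3, 6 and 4 replicate 2 peaks. None of the 6 held a replicate 1 peak. Counts in 50-kb bins varied 3.77 times as much as their mean in the centre and 3.15 times on the right arm (variance to mean ratio, which is 1 for independent placement), so peaks were grouped in both.

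Peak width did not separate the regions. The median width was 245 bp in the centre (exact interval 237 to 254) and 246.5 bp on the right arm (233 to 257) in the series-wide list. It was 253 bp (244 to 260) and 251.5 bp (243 to 260) in replicate 2. Replicate 1 had 189 bp (176 to 210) and 223 bp (201 to 242), and its right arm peak was the wider in 59.5% of pairs, with an interval of 49.5 to 69.4 that holds 50. The same share was 49.4% (46.6 to 52.3) for the series-wide list and 50.0% (47.6 to 52.4) for replicate 2. Members over 1 kb were few, 18 in the centre (1.92%, 1.22 to 3.02) and 18 on the right arm (2.59%, 1.64 to 4.05), against 2.87% of the whole list. Replicate 2 had 40 (2.96%, 2.18 to 4.0) and 27 (2.69%, 1.85 to 3.88), against 2.89% of that list. Replicate 1 had 1 of 86 (1.16%) in the centre and 0 of 52 on the right arm, which allows a share of up to 5.77% (3 counts of the total; the Wilson upper limit is 6.88%), against 1.27% of its whole list.

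The widest member was in the centre, at III 6566882 to 6573664, with 6783 bp and a series-wide score of 15.35. In replicate 1 it was covered by 8 separate peaks. Of these, 1 was 1829 bp wide and scored 4.83, and the other 7 formed a run from III 6569019 to 6573090 with scores from 1.53 to 3.30. In replicate 2 it met 2 peaks, the one with the larger overlap being III 6569022 to 6573652 with a score of 30.27. This site held 8 of the 86 replicate 1 peaks of the centre and 8 of the 20 in the bin from III 6222001 to 6722000, where replicate 1 had its highest count outside the left arm. With each series-wide member counted once, 77 members in the centre and 46 on the right arm were called in replicate 1, which is 11.6 and 13.4 per Mb (ratio 1.15, 0.779 to 1.68).

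The other wide members were III 5940283 to 5944004 (3722 bp, score 11.46) and III 7728376 to 7730616 (2241 bp, 12.23) in the centre. The 3 widest of the right arm were III 12612309 to 12616081 (3773 bp, 11.13), III 12556041 to 12559026 (2986 bp, 31.89) and III 10634451 to 10637330 (2880 bp, 22.51). All 6 of the widest members were called in replicate 2 and 5 in replicate 1, the exception being III 7728376 to 7730616. The first and second of the right arm fall in its densest 100-kb bin. Width and score rose together only in part, with a Spearman's rho of 0.40 over the 936 centre peaks and 0.47 over the 696 right arm peaks. These points share a library and the same peak calls, and the values are descriptions.

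Series-wide scores were close to each other in both regions, and lower than on the left arm of III. The series-wide median was 7.03 in the centre (exact interval 6.61 to 7.50) and 6.53 on the right arm (6.07 to 7.20), against 7.48 on the other 5 chromosomes and 13.2 (11.9 to 14.1) on the left arm of III. The right arm peak had the higher score in 48.5% of pairs (45.7 to 51.3). In replicate 2 the right arm was lower beyond counting error, with medians of 9.37 (8.73 to 10.0) and 8.09 (7.69 to 8.73) and 46.3% of pairs (43.99 to 48.7). The upper quartiles were 19.3 and 15.2 there. The other 5 chromosomes had a replicate 2 median of 9.15, from which the centre was not distinguishable (higher in 50.4% of pairs, 48.8 to 52.03), while the right arm was lower (46.8%, 45.1 to 48.6). Against the same chromosomes, both regions were lower in the other 2 lists. Series-wide, the centre was higher in 47.2% of pairs (45.3 to 49.03) and the right arm in 45.7% (43.6 to 47.9). Replicate 1 gave 42.8% (36.4 to 49.2) and 41.2% (33.7 to 48.7). In replicate 1 the medians were 4.33 (3.75 to 4.83) and 4.26 (3.75 to 5.22), and the share of pairs was 48.9% (39.04 to 58.8).

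High scores were less frequent among the members than in the whole series-wide list, where 10.0% of peaks formed the highest score decile. That decile held 58 of the centre peaks, 6.20% (4.82 to 7.93), and 41 of the right arm peaks, 5.89% (4.37 to 7.89). Both intervals lie under the whole-list value and under the 8.96% of the other 5 chromosomes. In replicate 2, where 10.1% of all peaks were in the highest decile, the shares were 9.68% (8.22 to 11.4) and 8.07% (6.54 to 9.92). In replicate 1 they were 8.14% (7 peaks, 3.999 to 15.9) and 5.77% (3 peaks, 1.98 to 15.6), against 11.0% of that list.

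The surplus of peaks on the right arm was present among weak and strong peaks. All series-wide peaks of the genome were divided into 5 equal classes by score. In the weakest class, with scores up to 4.13, the centre had 31.9 peaks per Mb and the right arm 48.5, a ratio of 1.52 (1.23 to 1.87). The ratio was 1.63 (1.32 to 2.00) in the second class, 1.24 (0.987 to 1.55) in the third and 1.35 (1.07 to 1.70) in the fourth. In the strongest class, from a score of 15.31, it was 1.39 (1.06 to 1.82), with 20.2 and 28.2 per Mb. All 5 ratios were above 1, and the interval of the third class reached below 1. The intervals overlap, and no trend with score is read from them. The left arm had a different profile, with 26.3 peaks per Mb in the weakest class, fewer than the right arm, and 128 in the strongest.

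**Figure D3:**
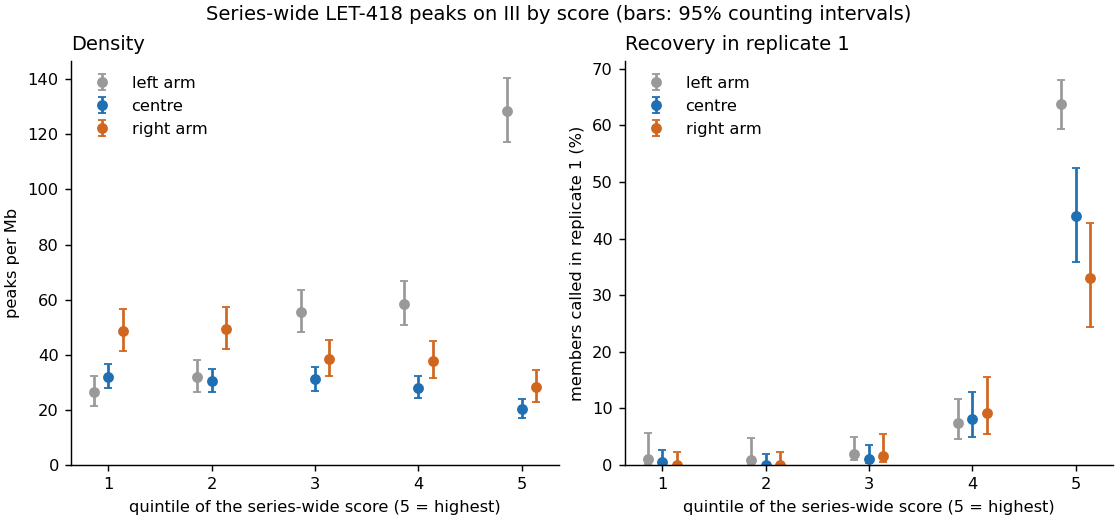
Peaks per Mb (left) and share of members called in replicate 1 in percent (right) for the left arm, centre and right arm of III, by quintile of the series-wide score over the whole genome. Points are regional values and bars 95% intervals (exact Poisson and Wilson): the right arm lies above the centre in all 5 classes on the left, and calls in replicate 1 are frequent in the strongest class alone on the right.

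Few members were called in replicate 1, and nearly all were called in replicate 2. Overlap by at least 1 bp with a replicate 1 peak was found for 77 of the 936 centre peaks, 8.23% (6.63 to 10.2), and for 46 of the 696 right arm peaks, 6.61% (4.99 to 8.70). The background was 12.1% over the whole series-wide list and 11.1% on the other 5 chromosomes, each above both intervals. The odds ratio of right arm to centre was 0.789 (0.540 to 1.15), so no difference between the regions was detectable. Replicate 2 peaks overlapped 892 centre members, 95.3% (93.7 to 96.5), and 648 right arm members, 93.1% (90.97 to 94.8), against a background of 93.3%. The odds ratio was 0.666 (0.437 to 1.01), an interval that just holds 1. The 2 replicates differ in list length, so their shares are not comparable. With replicate 2 cut to the length of replicate 1, it held 15.2% of centre and 11.8% of right arm members, against 15.1% of the whole list.

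Members called in replicate 1 mostly had high scores. Their median series-wide score was 22.4 in the centre and 19.5 on the right arm, against 6.51 and 6.13 for members not called there. In the strongest score class 44.0% (35.9 to 52.5) of the 134 centre peaks and 33.0% (24.4 to 42.8) of the 97 right arm peaks were called in replicate 1. On the left arm the value was 63.8% (59.4 to 68.0). In the 3 weaker classes together, 3 members of the centre and 2 of the right arm were called. Pooled over score classes, the left arm had 2.40 times the right arm's odds of a replicate 1 call (Mantel-Haenszel interval 1.64 to 3.51). The left arm had 1.86 times the odds of the centre (1.34 to 2.59). Between centre and right arm the ratio was 0.771 (0.50 to 1.19) on the same basis. The left arm's higher odds came mainly from the strongest class. In the fourth class 7.37% of left arm, 8.11% of centre and 9.23% of right arm peaks were called. Scores also differed within the strongest class. The highest score decile held 290 of its 478 left arm peaks, 58 of its 134 centre peaks and 41 of its 97 right arm peaks. Score was thus not held equal between the regions. In replicate 2 the left arm stood on the other side. Without score classes it had 0.706 times the odds of the right arm, with an interval of 0.495 to 1.01 that holds 1. Its odds were 0.470 times those of the centre (0.327 to 0.676). Pooled over score classes, the 2 ratios were 0.343 (0.234 to 0.501) and 0.217 (0.147 to 0.322).

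**Figure D4:**
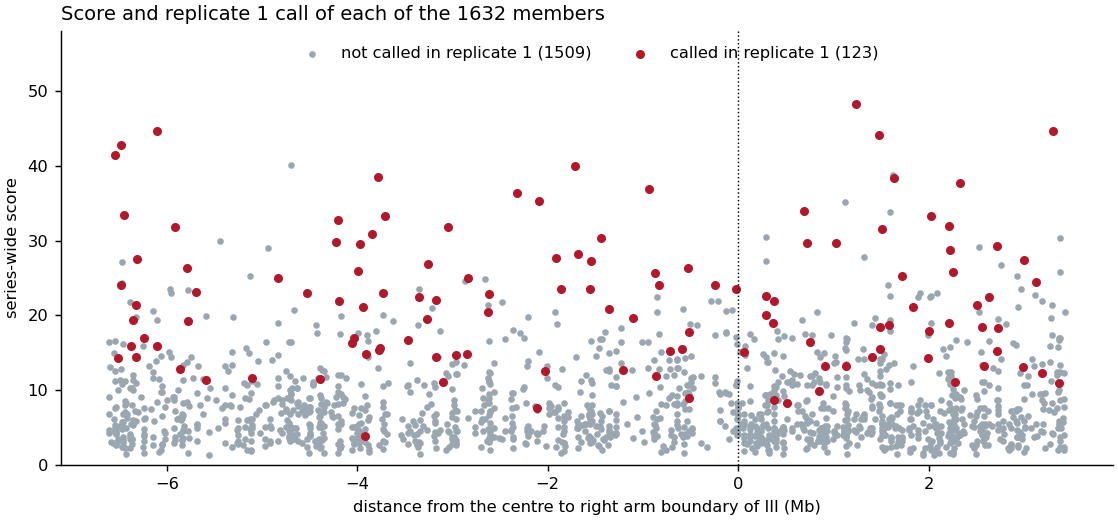
Series-wide score of each of the 1632 members against its distance in Mb from the boundary of centre and right arm (dotted line). Red points are the 123 members called in replicate 1 and grey points the 1509 that were not; most grey points lie low, but some with scores above 30 were not called in replicate 1.

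The 10 strongest centre members were 260 to 989 bp wide, each above the centre's median width of 245 bp. The highest series-wide score, 44.69, was at III 4236238 to 4236861 (624 bp), with 17.92 in replicate 1 and 119.06 in replicate 2. III 3857046 to 3857336 followed with 42.84 (replicate 1 14.69, replicate 2 110.3), and III 3798303 to 3798725 with 41.42 (9.89 and 69.29). These 3 lie in or just after the first 500 kb of the centre. The fourth, III 5637241 to 5637782, scored 40.08 and reached 114.69 in replicate 2, but was not called in replicate 1. It lies in the densest 100-kb bin of the centre, which had no replicate 1 peak at all. The other 6 of the 10 strongest were III 8628263 to 8628604 (39.99), III 6551227 to 6552215 (38.47), III 9408262 to 9408559 (36.92), III 8020911 to 8021170 (36.31), III 8242715 to 8243241 (35.33) and III 3887418 to 3887809 (33.43). Of the 10, 9 were called in replicate 1 and 10 in replicate 2.

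On the right arm the highest series-wide score was 48.32, at III 11581338 to 11581634 (297 bp), with 15.65 in replicate 1 and 125.06 in replicate 2. III 13643469 to 13643820 had 44.69 and the highest replicate 2 score of the 20 members named here for score, 161.0, but a replicate 1 score of 9.56. III 11823263 to 11823561 had 44.15 (12.03 and 120.19). Of the 10 strongest right arm members, 7 were called in replicate 1. The 3 that were not were III 11966598 to 11967281 (38.82, replicate 2 109.14), III 11463716 to 11464053 (35.09, 95.59) and III 11935062 to 11935650 (33.88, 42.62). The others were III 11980443 to 11981802 (38.33), III 12665358 to 12666029 (37.71), III 11036067 to 11036321 (33.89) and III 12369966 to 12370252 (33.22). All 10 were called in replicate 2. The last member of the chromosome, III 13771151 to 13771367, scored 20.49 and was called in replicate 2 only.

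Replicate 2 placed the shared peaks close to the series-wide ones. The midpoints differed by a median of 16.5 bp in the centre and 17 bp on the right arm, and by at most 100 bp for 82.8% of the 892 and 84.4% of the 648 members. The replicate 2 peak was wider, with medians of 310.5 and 312 bp against 251 and 252.5 bp for the same members. Each member was matched to the replicate 2 peak of largest overlap, so 1 wide peak can count for several members. Over all replicate 2 peaks of the regions, each counted once, the median widths were 253 and 251.5 bp. Series-wide and replicate 2 scores of these members had a Spearman's rho of 0.73 and 0.74. For replicate 1 the midpoints differed by a median of 37.5 bp over 77 members and 40.8 bp over 46. Scores of the 2 replicates had a rho of 0.40 over 76 centre members and 0.58 over 46 right arm members. The series-wide list may rest on the same reads as the replicate lists, so these values are descriptions.

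Members found in neither replicate list were weak and narrow. There were 43 in the centre, 4.59% (3.43 to 6.13), and 48 on the right arm, 6.90% (5.24 to 9.03), against 6.57% of the whole list. Their median series-wide scores were 3.80 and 4.61, against 7.20 and 6.85 for the other members, and their median widths 171 and 178.5 bp against 251 and 252.5 bp. The highest score among them was 12.04 in the centre and 10.04 on the right arm.

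In the other direction, many replicate 2 peaks had no series-wide counterpart, in nearly equal shares of both regions. Of the replicate 2 peaks, 842 of 1353 in the centre (62.2%, 59.6 to 64.8) and 627 of 1004 on the right arm (62.5%, 59.4 to 65.4) overlapped a series-wide peak, against a background of 63.3%. The 511 and 377 that did not had median replicate 2 scores of 5.17 and 5.32, against 15.6 and 11.8 for those that did. Replicate 2 peaks were called in replicate 1 in 5.69% of cases in the centre (4.58 to 7.06) and 4.48% on the right arm (3.37 to 5.94). The background was 8.65% over the whole list and 7.76% on the other 5 chromosomes. Replicate 1 peaks were nearly all held by replicate 2, with 85 of 86 in the centre and 51 of 52 on the right arm, against 99.0% of the whole list. The exceptions were III 9125424 to 9125582 (replicate 1 score 4.83) and III 11191233 to 11191391 (2.27), and the series-wide list held both. It held every one of the 138 replicate 1 peaks of these regions.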

How the data were processed

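ChIP-seq of LET-418 was analysed from 3 peak lists that the authors deposited: those of the 2 ChIP replicates and a series-wide one. Peaks were called with MACS on WormBase WS220, per the file headers and source column. BWA and ce10, the browser name of WS220, are named in the submitters' processing notes. For versions, the threshold, the use of input and the making of the series-wide list, nothing is stated in the sources used here. The score was deposited by the authors with no named scale. Coordinates are 1-based, as GFF3 per the file headers.

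Members were assigned by midpoint, and the right arm runs to the end of the last peak on III in any list, 13783700. Overlap of at least 1 bp counted as shared. Densities carry exact Poisson intervals, density ratios exact conditional binomial intervals, shares Wilson intervals, medians exact order-statistic intervals, pair shares DeLong intervals (ties count as 0.5) and odds ratios Woolf or, within 5 score classes, Mantel-Haenszel intervals. Labels do not say whether the replicates were separate cultures. The functions were tested on simulated data. Regions named in the text are the 10 highest-scoring and 3 widest members, the 3 longest gaps, the 3 densest and the sparsest 100-kb bins and the longest run in each region, the peaks at the boundaries and the replicate 1 peaks absent from replicate 2. Members, lists and rules were chosen with earlier results of these data known. No genome or gene models on WS220 were used here, so no peak was assigned to a gene and no sequence is shown. Alternatives covered the list, a score minimum, the boundary, merged neighbours, the overlap rule and the chromosome end. Python 3.11.15, NumPy 2.4.6, pandas 2.3.3, SciPy 1.17.1 and Matplotlib 3.10.9 were used.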

Additional observations from a re-analysis of the deposited data

How the results depend on the processing

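The density ratio of right arm to centre was above 1 in all 9 alternatives. With either replicate list in place of the series-wide one it was 1.16 to 1.43, the lower value from replicate 1 with an interval that holds 1, and in the other alternatives 1.31 to 1.49. Moving the boundary by 500 kb gave 1.31 (left) and 1.32 (right). The share of pairs with the longer spacing on the right arm was 45.6 to 47.7% with either replicate list, 41.98% with series-wide scores from the median up and 43.3% with peaks under 500 bp apart merged, each under 50%. Its interval held 50% in replicate 1 (37.6 to 57.7) and with the boundary 500 kb further right (47.8%, 44.9 to 50.7). The share with the wider peak on the right arm was 50.0 to 59.5% with either replicate list and 53.3% with scores from the median up, and that with the higher score 46.3 to 48.9% and 51.5%. These 2 shares lay on both sides of 50%, and their main intervals hold 50%. For the score the interval excluded 50% in replicate 2 (43.99 to 48.7) and with merged peaks (46.3%, 42.9 to 49.7). The odds ratio of a replicate 1 call stayed between 0.597 and 0.872, and all its intervals hold 1. That of a replicate 2 call was 0.578 to 0.869. Its interval excluded 1 with 50% of the member covered (0.591, 0.404 to 0.865), with the boundary 500 kb further right (0.605, 0.396 to 0.923), without the last 500 kb of the chromosome (0.578, 0.379 to 0.881) and, barely, with replicate 2 cut to the length of replicate 1 (0.747, 0.558 to 0.9995). The cause was not tested. The alternatives without the first 500 kb of the centre (density 1.49, score 48.5%, replicate 1 calls 0.820) were added once values were known. No paired analysis was possible because neither input sample has a peak list here. Read depth is unknown, and the 138 replicate 1 peaks of these regions limit every comparison in that list.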
